A study of Homo sapiens with 12 samples.

Results

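The 38 autophagy genes described here are a set of symbols picked by what their products do. They run from the transcription factors TFEB and TFE3 to the lysosomal membrane proteins LAMP1 and LAMP2. The genes were chosen with earlier results of these data known, so counts of members called are not those of a list drawn up blind. They were looked up by symbol in a table of 23500 genes, and all 38 were found, under 40 entries. For each symbol the entry with the highest summed count was kept. MAP1LC3A, a member of the LC3 family, had 3 counts over all 12 libraries and could not be tested, which left 37 genes.

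RNA was sequenced from 12 libraries of cultured human cells, 3 in each of 4 groups. HEK293T cells are an embryonic kidney line carrying adenoviral DNA and the SV40 large T antigen. In the study they did not grow in medium with homocysteine in place of methionine. R1 is a single methionine-independent clone derived from HEK293T, so any difference between the lines is a difference between 1 clone and its parental culture. Libraries were taken as R1 from their titles and the study's description, whereas the cell line field of their labels reads HEK293T. Both lines were kept for 12 h in medium with methionine (+Met) or in medium without methionine and with homocysteine (−Met+Hcy), and the library total ran from 12664158 to 18771349 counts. The labels do not say whether replicates were separate cultures, so p-values measure the spread between libraries. Of 7 HEK293T markers all were found, with a summed level between 499.7 and 1062 CPM (counts relative to the size of the library) in each library, most of it VIM. In +Met the means in HEK293T and R1 were 57.8 and 55.4 CPM for the neurofilament gene NEFL, 34.7 and 12.4 CPM for NEFM, 8.70 and 19.7 CPM for INA, and 0.549 and 5.21 CPM for the kidney factor PAX2. The 7 markers of MDA-MB-468, a breast cancer line that the study also used, summed to 4.84 to 21.1 CPM per library. Most of this was EGFR, at a mean of 4.87 CPM in HEK293T and 13.98 CPM in R1 in +Met, with CDH1 at 0.374 and 1.83 CPM and EPCAM at 0.380 and 1.26 CPM, while KRT5 was at 0 in every library and KRT7, KRT19 and LCN2 had at most 1 count. Markers of other cell types summed to 15.1 to 41.7 CPM, mostly COL1A1 and LUM.

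Macroautophagy encloses cytoplasm in a double membrane, the autophagosome, and delivers it to lysosomes for degradation. It starts with the ULK1 kinase complex, which is held back by the growth kinase mTORC1 when amino acids are plentiful, and with the class III PI3-kinase that marks the forming membrane. A ubiquitin-like system then attaches ATG8 proteins (LC3 and GABARAP) to the membrane lipid, receptors such as SQSTM1/p62 tie cargo to them, and TFEB and TFE3 switch on many autophagy and lysosome genes.

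TFEB and TFE3 bind the palindrome CACGTG, the E-box, in the promoters of lysosomal genes. RefSeq start sites (build GRCh38.p14) were at hand for 33 of the 38 genes, and the E-box was sought in the 250 bases before each start, where the palindrome reads the same on both strands. It was present before LAMP1, ATG3 and ATG14, and in 6.34% of all 35116 windows of that length. The stretches before these starts are printed here because both factors belong to the set, with each E-box in capitals. For ATG3 only 30 bases are given because its window lies within annotated exons.

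LAMP1: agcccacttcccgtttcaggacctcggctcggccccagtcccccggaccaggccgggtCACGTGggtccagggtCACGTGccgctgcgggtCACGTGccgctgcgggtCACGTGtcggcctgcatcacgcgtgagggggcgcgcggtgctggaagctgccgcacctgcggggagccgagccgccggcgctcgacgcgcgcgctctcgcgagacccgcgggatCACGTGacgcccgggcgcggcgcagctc
ATG14: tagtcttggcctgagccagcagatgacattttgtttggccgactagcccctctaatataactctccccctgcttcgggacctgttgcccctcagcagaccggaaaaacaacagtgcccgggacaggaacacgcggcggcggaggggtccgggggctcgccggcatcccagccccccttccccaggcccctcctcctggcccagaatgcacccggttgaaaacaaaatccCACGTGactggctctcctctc
ATG3: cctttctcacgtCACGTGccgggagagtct

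The LAMP1 stretch lies at chr13:113296989-113297238 on the plus strand and holds 5 E-boxes, the nearest 28 bases before the start, where it overlaps a longer form, TCACGTGA, found in 0.854% of all windows. The ATG14 stretch lies at chr14:55411831-55412080 on the minus strand with its E-box 21 bases before the start. The ATG3 stretch lies at chr3:112561963-112561992 on the minus strand with its E-box 18 bases before the start. This RefSeq start of ATG3, and the stretch itself, lie inside the gene as GENCODE draws it. A match of letters is a description of the sequence, not a binding site. A second motif, the cyclic AMP response element TGACGTCA, was found before GABARAPL1 alone among the 33 genes and in 1.65% of all windows. The amino acid response core TGATGNAA, where N is any base, was sought on both strands and had no match before these genes, against 3.14% of all windows.

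GABARAPL1: ggctcgcggggTGACGTCAcagcccgacgc

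This stretch of 30 bases lies at chr12:10212836-10212865 on the plus strand, and the element, in capitals, starts 30 bases before this RefSeq start, which lies inside the gene as GENCODE draws it. The rest of that window overlaps an annotated exon and is not shown.

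One library stood farthest from its group and bears on most of the values that follow. R1 −Met+Hcy replicate 3 differed from replicates 1 and 2 by a chi-square per gene of 205 and 236, whereas the other pairs of replicates gave 7.13 to 90.1. The next farthest was R1 +Met replicate 2, at 72.1 and 90.1 from replicates 1 and 3, which differed from each other by 7.13. Over 11043 genes, the deviation of a library from the other 2 of its group had a Spearman rho with GC content of −0.74 in R1 −Met+Hcy replicate 3, 0.60 and 0.73 in its replicates 1 and 2, which were set against a mean that includes replicate 3, −0.34 in R1 +Met replicate 2, 0.46 and 0.18 in R1 +Met replicates 1 and 3, and −0.29 to 0.54 in the HEK293T libraries. In R1 −Met+Hcy replicate 3 the log2 ratio to the mean of the other 2 replicates followed the GC content of the transcript over the 37 genes, with a Spearman rho of −0.78, given as a description because all points come from the same library. The GC-rich genes ATG4D, ATG101, ULK1, ATG2A, TFEB, ATG9A and TFE3 were more than 1 log2 unit lower in it, and ATG3, CALCOCO2, TAX1BP1, LAMP2, ATG5 and PIK3C3 were more than 1 log2 unit higher. The common dispersion of the fit was 0.109 with this library and 0.0349 without it. Calls are therefore given with all 12 libraries and, for most members, again with 11, without R1 −Met+Hcy replicate 3. Where no other setting is named, both are edgeR fits with TMM scaling, and a gene not called in them may be called under another setting. Beside some calls stands the number of 26 alternatives (other scaling, filters, tests or samples, each library left out in turn, but no minimum fold change) in which the gene was called.

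**Figure D1:**
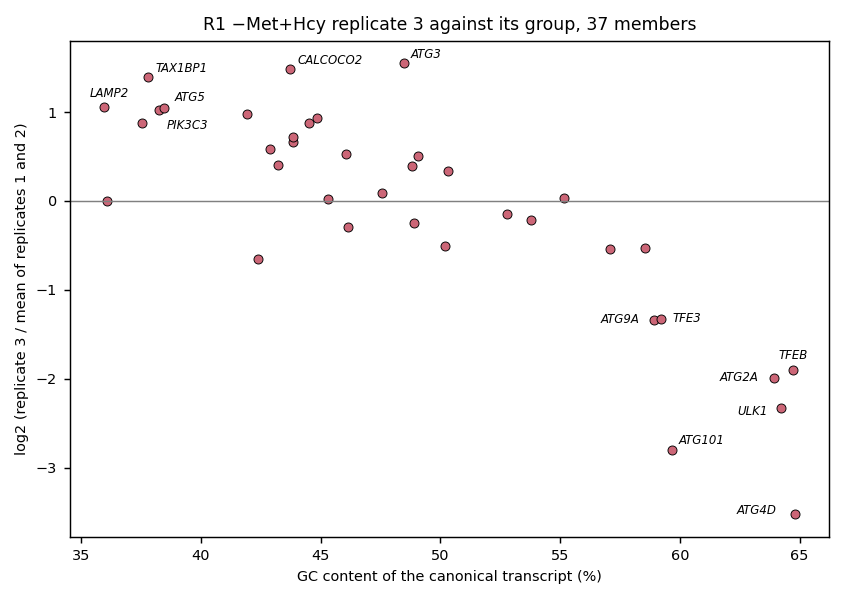
Each point is 1 of the 37 genes, with the GC content of its canonical transcript (%) on the x axis and the log2 ratio of CPM in R1 −Met+Hcy replicate 3 to the mean of replicates 1 and 2 on the y axis. Genes with a ratio beyond 1 log2 unit are named. The 7 genes under −1 have GC contents from 58.9% (ATG9A) to 64.8% (ATG4D).

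Values per library are CPM scaled by TMM, the normalization that the tests use. Divided by the length of the canonical transcript, the highest level in HEK293T cells in +Met was that of the ATG8 protein GABARAPL2, at 148 CPM per kb, followed by GABARAP at 91.6 and the lipidation enzyme ATG3 at 80.5 CPM per kb. TFE3 stood at 6.52 CPM per kb and TFEB at 1.57 CPM per kb. The lowest levels were those of WIPI1, at 0.806 CPM per kb, and of the kinase ULK2, at 0.750 CPM per kb. In R1 in +Met the same scale gave GABARAP 101, GABARAPL2 100.1, WIPI1 4.22 and ULK2 1.38 CPM per kb.

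On column sums alone, without TMM, mean CPM of SQSTM1 was 65.0 ± 10.3 (SD, n = 3) in HEK293T +Met, 45.9 ± 6.18 in HEK293T −Met+Hcy, 117 ± 10.49 in R1 +Met and 84.5 ± 24.5 in R1 −Met+Hcy. For TFEB the corresponding means were 3.14 ± 1.15, 3.56 ± 0.659, 8.70 ± 1.79 and 7.02 ± 4.51. For WIPI1 they were 1.30 ± 0.510, 0.847 ± 0.179, 8.71 ± 1.29 and 6.24 ± 0.736. On either scale the R1 mean of these 3 genes was above the HEK293T mean in both media. TMM factors were 0.828 to 0.882 in HEK293T +Met and 0.9302 to 1.12 in the other groups. Without them the median log2 fold change of all genes moved from 0.03 to 0.33 for the medium in HEK293T, from 0.02 to 0.37 between the lines in +Met, and from −0.06 to −0.38 for the difference of the responses.

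The first comparison asked how the autophagy genes of methionine-dependent HEK293T cells responded to homocysteine medium. The cargo receptor SQSTM1 fell, and it was the one member called with 12 libraries in edgeR with TMM scaling. Background calls were 4.25% of 17162 genes higher and 2.78% lower. No member was called higher in that fit, although 4 were higher and 4 lower at an unadjusted p under 0.05, as were 2209 and 1629 of all 17162 genes, and DESeq2 called ATG13, UVRAG and WIPI2 higher and SQSTM1 lower, beside 8% and 5.87% of the genes to which it gave an adjusted p. Other edgeR settings with 12 libraries also called members higher. On column sums alone ATG13, RB1CC1, UVRAG, WIPI2 and OPTN were called higher and 0 members lower, beside 10.5% and 1.24% of all genes. With the trend with GC content and length removed, ATG13 and RB1CC1 were called higher and GABARAP and SQSTM1 lower, beside 10.2% and 9.54%. The edgeR filter by group size called ATG13 higher and SQSTM1 lower, beside 5.45% and 3.43%, and ATG13 was also called higher without R1 +Met replicate 2 or R1 −Met+Hcy replicate 2. Once R1 −Met+Hcy replicate 3 was left out, a library that does not enter this comparison except through the shared spread, 7 of 37 members were called higher and 5 lower, beside 15.2% and 12.5% of 17069 genes. A fit on the 6 HEK293T libraries alone also gave 7 higher and 5 lower, with NBR1 in place of GABARAPL1, beside 18.6% and 15.5% of the 16275 genes tested in it. The median log2 fold change of the members was −0.10, beside 0.03 for all genes. Of the 37 members, 17 had groups without overlap, as had 45.4% of all 17162 genes, so a lack of overlap does not set a member apart in this comparison. In RNA from whole cultures, fewer cells that express a gene and less RNA of it per cell cannot be told apart.

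SQSTM1 encodes p62, which binds ubiquitin on cargo and LC3 on the membrane and is itself degraded with its cargo. It had 87.8, 78.1 and 63.9 CPM in +Met and 46.6, 46.4 and 39.2 CPM in −Met+Hcy, and the groups did not overlap. SQSTM1 fell by 0.80 ± 0.20 on the log2 scale (SE, adjusted p = 0.0316 in edgeR, 0.00149 with 11 libraries). This call was lost when any 1 of the 6 HEK293T libraries was left out (edgeR adjusted p from 0.0554 to 0.141) or R1 +Met replicate 1 (adjusted p = 0.0564) and with the replicate number as a block (the replicate block, adjusted p = 0.0530), and the change was −0.50 (adjusted p = 0.188) on column sums alone. The gene lies at chr5:179806398-179838078 on the plus strand, and exons of MRNIP on the opposite strand cover 55.7% of its transcript. A second SQSTM1 entry, between which and the first the reads may be split, had 179 to 785 counts per library, and adding both gave −0.79 (edgeR adjusted p = 0.0322).

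In the ULK1 complex, which has 5 members in the set, ATG13, RB1CC1 and ATG101 were called higher in −Met+Hcy with 11 libraries, beside 15.2% of all genes. With 12 libraries none was called with TMM scaling and no other change, and the settings that called ATG13 and RB1CC1 are given above. ATG13, a subunit that mTORC1 phosphorylates, had 47.7, 46.1 and 37.7 CPM in +Met and 70.1, 73.7 and 65.8 CPM in −Met+Hcy. Its log2 fold change was 0.67 ± 0.19 with an adjusted p in edgeR of 0.0529 with 12 libraries and 0.00891 with 11. RB1CC1, which encodes the scaffold FIP200, went from 115, 143 and 141 CPM to 201, 216 and 212 CPM, a log2 fold change of 0.66 (adjusted p = 0.111 with 12 libraries and 0.00216 with 11 in edgeR). ATG101, the partner of ATG13, had 37.95, 33.9 and 27.1 CPM in +Met and 46.2, 47.0 and 50.2 CPM in −Met+Hcy (0.54 ± 0.15 with 11 libraries, edgeR adjusted p = 0.0191). The groups of these 3 genes are among the 17 without overlap. The kinase ULK1 had 38.6, 45.4 and 37.99 CPM in +Met and 46.6, 31.7 and 29.95 CPM in −Met+Hcy, groups that overlap. The log2 fold change was −0.17 ± 0.45, and neither ULK1 nor ULK2 was called.

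UVRAG and ATG14 are alternative subunits of the class III PI3-kinase, the first found with it mainly on endosomes and the second on forming autophagosomes. UVRAG had 19.5, 20.1 and 20.5 CPM in +Met and 28.1, 29.2 and 30.4 CPM in −Met+Hcy. ATG14 had 12.2, 17.2 and 18.2 CPM in +Met and 10.7, 9.66 and 9.87 CPM in −Met+Hcy. The 2 genes lay in opposite directions: with 11 libraries UVRAG rose by 0.54 ± 0.11 (adjusted p = 0.00300) and ATG14 fell by 0.65 ± 0.21 (adjusted p = 0.0392) in edgeR, whereas with 12 libraries the adjusted p-values were 0.0966 and 0.230. The core subunits BECN1, PIK3C3 and PIK3R4 had log2 fold changes between −0.10 and 0.11 and were not called in either fit. WIPI2, which binds the lipid made by this kinase and recruits the conjugation machinery, had 78.6, 69.6 and 73.7 CPM in +Met and 104, 109 and 104 CPM in −Met+Hcy. It was called with 11 libraries at 0.52 ± 0.12 (adjusted p = 0.00860 in edgeR) and had an adjusted p of 0.0721 with 12. WIPI1, with 11 to 30 counts per library, had a log2 fold change of −0.92 ± 0.37 (edgeR adjusted p = 0.160), while ATG2A, ATG2B and ATG9A, which supply lipid to the growing membrane, ranged from −0.36 to 0.03 and were not called.

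In the lipidation system none of 13 tested members was called with 12 libraries, and with 11 libraries 1 of 13 was higher and 3 were lower, beside 15.2% and 12.5% of all genes. ATG3, the enzyme that passes ATG8 proteins to the membrane lipid, had 132, 109 and 137 CPM in +Met and 60.9, 75.4 and 74.0 CPM in −Met+Hcy. Its log2 fold change of −0.85 was called with 11 libraries (SE 0.17, adjusted p = 0.00290 in edgeR) and not with 12 (SE 0.36, adjusted p = 0.192). Among the ATG8 proteins, GABARAP had 129.9, 105 and 127 CPM in +Met and 68.7, 86.1 and 96.5 CPM in −Met+Hcy. GABARAPL1, whose upstream stretch with the cyclic AMP element is printed above, had 10.2, 9.48 and 8.60 CPM in +Met and 12.6, 12.3 and 13.3 CPM in −Met+Hcy. With 11 libraries GABARAP fell by 0.53 (adjusted p = 0.0233) and GABARAPL1 rose by 0.43 (adjusted p = 0.0470) in edgeR. MAP1LC3B, which encodes the LC3 protein most used to follow autophagosomes, had 75.6, 70.2 and 86.6 CPM in +Met and 69.7, 86.4 and 94.4 CPM in −Met+Hcy, and its log2 fold change of 0.11 ± 0.23 was not called. The protease ATG4D was called lower with 11 libraries, at −0.48 ± 0.13 (adjusted p = 0.0198 in edgeR). Exons of other genes cover 52.4% of the GABARAP transcript and 48.6% of the ATG9A transcript on the same strand. On the opposite strand they cover 42.8% for ATG101, 37.7% for BECN1, 29.9% for ATG7, 22.2% for ATG14 and 17.0% for ATG4D. Reads of these genes may include those of their neighbours.

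TFEB had 3.18, 5.05 and 2.79 CPM in HEK293T +Met and 3.49, 2.71 and 4.11 CPM in −Met+Hcy. TFE3 had 21.8, 21.4 and 21.2 CPM and 29.8, 23.3 and 21.1 CPM. The groups of both factors overlapped between the media, and the log2 fold changes of −0.10 ± 0.48 and 0.21 ± 0.31 were not called in either fit. Of the receptors other than SQSTM1, OPTN, which acts in the removal of damaged mitochondria, was called higher with 11 libraries at 0.47 ± 0.13 (adjusted p = 0.0198 in edgeR), from 16.3, 17.4 and 14.9 CPM to 22.8, 24.5 and 20.1 CPM. LAMP1 and LAMP2 had log2 fold changes of −0.19 and −0.16 and were not called.

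**Figure D2:**
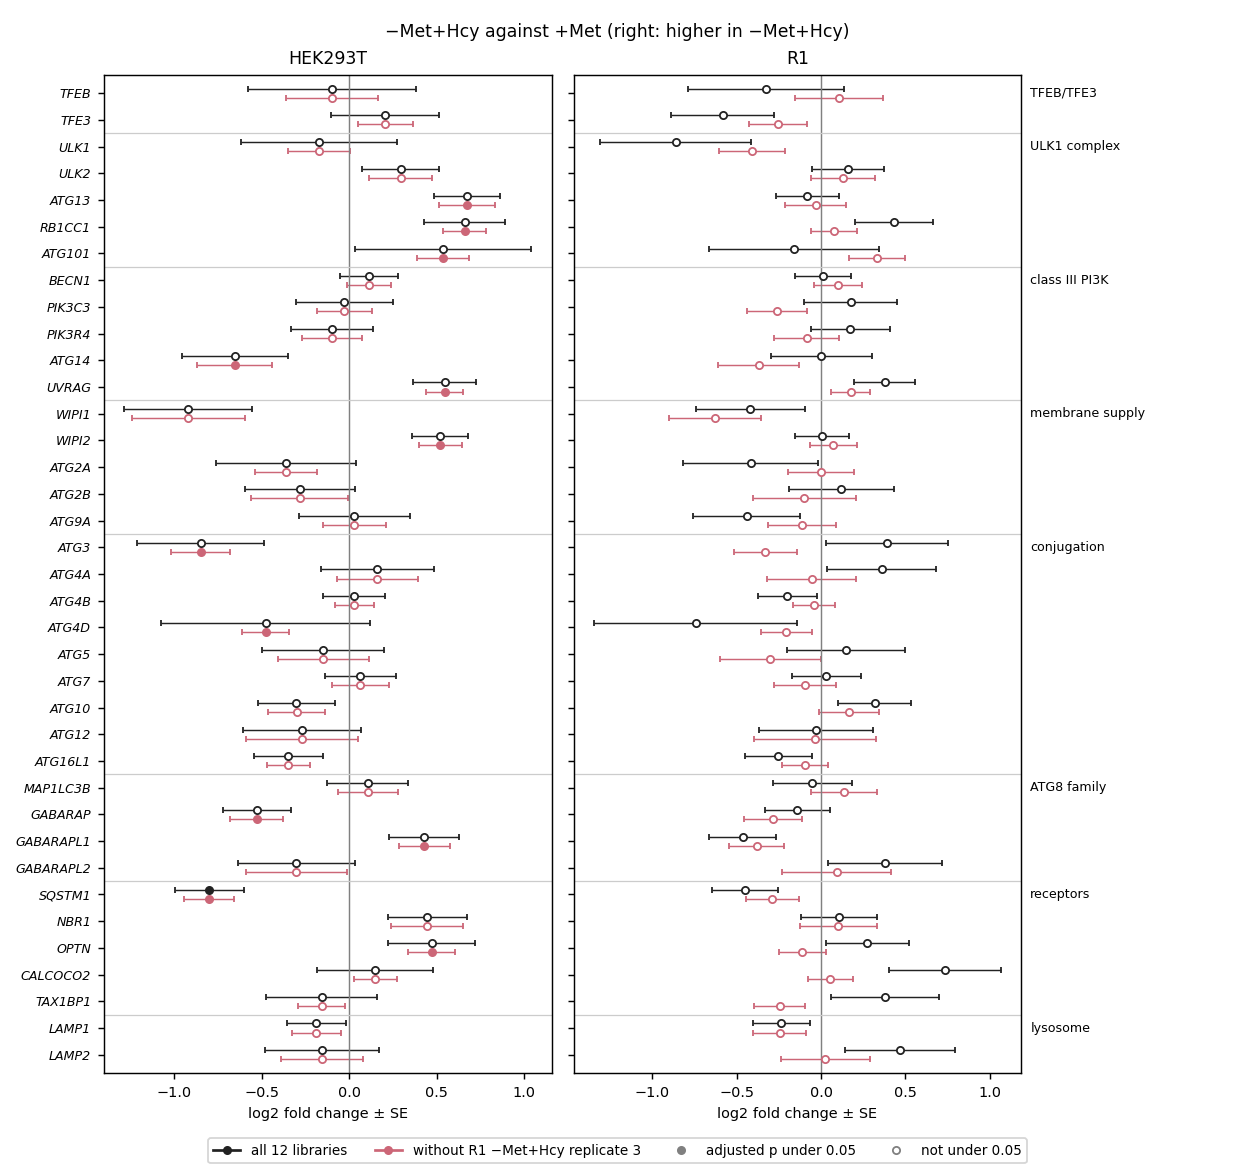
Log2 fold changes of −Met+Hcy against +Met (x axis, positive is higher in −Met+Hcy) with their SE for the 37 tested genes, ordered by role, in HEK293T (left) and R1 (right). Black points use 12 libraries, red points leave out R1 −Met+Hcy replicate 3, and filled points have an edgeR adjusted p under 0.05. SQSTM1 is the one filled black point, 12 red points are filled in HEK293T, and no point is filled in R1.

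In R1, the clone that grows without methionine, no member was called for the medium with 12 or with 11 libraries, and DESeq2 called none either (0.209% of all genes higher and 0.0443% lower with 12 libraries). The background was as low: 0.00583% of 17162 genes higher and 0% lower with 12 libraries, and 0.0176% of 17069 genes higher and 0% lower with 11. At an unadjusted p under 0.05 in edgeR, 1 member was higher and 2 were lower with 12 libraries, as were 974 and 362 of all genes, and 0 were higher and 2 lower with 11, as were 766 and 439. The median log2 fold change of the members was 0.01 with 12 libraries and −0.09 with 11, beside −0.02 and 0.00 for all genes. SQSTM1 had 109, 101 and 114 CPM in R1 +Met and 89.1, 87.8 and 60.4 CPM in R1 −Met+Hcy. These groups did not overlap, and the change was −0.45 ± 0.20 (adjusted p = 0.622) with 12 libraries and −0.29 ± 0.16 (adjusted p = 0.788) with 11 in edgeR. ULK1 had 73.8, 56.4 and 67.5 CPM in +Met and 47.6, 51.7 and 9.51 CPM in −Met+Hcy, the last of these in replicate 3. Its change on the log2 scale was −0.86 ± 0.45 with 12 libraries and −0.41 ± 0.20 with 11. Similarly ATG4D had 31.3, 29.0 and 30.8 CPM in +Met and 25.8, 26.8 and 1.83 CPM in −Met+Hcy. RB1CC1 had 106, 111 and 115 CPM in +Met and 115, 118 and 215 CPM in −Met+Hcy, and its log2 fold change was 0.43 with 12 libraries and 0.08 with 11. UVRAG had 37.3, 37.4 and 37.1 CPM in +Met and 42.7, 41.5 and 61.1 CPM in −Met+Hcy (0.38 ± 0.18 with 12 libraries, 0.18 ± 0.12 with 11). ULK2 had 11.9, 13.1 and 12.8 CPM in +Met and 13.5, 14.0 and 14.7 CPM in −Met+Hcy (0.16 ± 0.22). The rule that chose RB1CC1, UVRAG, ULK2, ULK1 and ATG4D for description asked for groups without overlap, which 8 of the 37 members had, beside 10.6% of all 17162 genes, and in each of the 5 genes replicate 3 lay farthest from the +Met libraries.

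GABARAPL1 lay in opposite directions in the lines. In R1 it had 14.5, 13.2 and 16.0 CPM in +Met and 9.96, 12.4 and 9.34 CPM in −Met+Hcy, and the groups did not overlap. The log2 fold change was −0.46 ± 0.20 in R1 (adjusted p = 0.622 in edgeR) and 0.43 ± 0.20 in HEK293T. The difference between the responses, R1 minus HEK293T, was −0.89 ± 0.28 (adjusted p = 0.339) with 12 libraries and −0.81 ± 0.22 (adjusted p = 0.0848) with 11. No member was called for this difference in edgeR with TMM scaling, where the background was 0% of genes higher and 0.0583% lower with 12 libraries and 0.398% and 1.28% with 11. At an unadjusted p under 0.05, 1 member was higher and 3 were lower with 12 libraries, as were 793 and 866 of all genes, and 1 and 6 with 11, as were 1245 and 1582. DESeq2 called none with 12 libraries, beside 0.636% of genes higher and 1.1% lower. With 11 it called RB1CC1 and GABARAPL1 lower and none higher, beside 3.96% and 2.84% of all genes. With 11 libraries edgeR called RB1CC1, GABARAPL1 and OPTN lower on column sums alone (4.11% of all genes), and ATG13 and RB1CC1 lower when the trend with GC content and length was removed (4.65%). The SQSTM1 difference was 0.35 ± 0.28 (edgeR adjusted p = 0.701), so its decrease in HEK293T was not shown to differ from the value in R1.

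R1 was next set against HEK293T in +Met, to see how the clone differs before methionine is withdrawn. WIPI1, OPTN, TFE3, UVRAG and ULK2 were higher in R1 and ATG5 was lower, with 12 libraries. These 5 and 1 of 37 members stand beside 5.69% of genes higher and 4.48% lower. With 11 libraries the counts were 10 higher and 6 lower, beside 17% and 15.7%. The median log2 fold change of the members was 0.15, beside 0.02 for all genes, and the groups of 20 of the 37 members did not overlap, beside 42.9% of all genes. The groups of this comparison are also used in the comparisons of media, so the results are not independent of those above.

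The largest difference among the 37 members was in WIPI1, a relative of WIPI2 that binds phosphatidylinositol 3-phosphate on forming autophagosomes. WIPI1 had 2.27, 1.24 and 1.10 CPM in HEK293T +Met and 9.27, 7.92 and 6.95 CPM in R1 +Met. It had 11 to 30 counts per HEK293T library and 81 to 175 per R1 library over both media. In +Met the log2 fold change was 2.38 ± 0.35 (adjusted p = 0.00170 in edgeR, 6.86e-05 with 11 libraries), and it was called in all 26 alternatives. The gene lies at chr17:68420948-68457513 on the minus strand, and exons of ARSG on the opposite strand cover 28.3% of its transcript.

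OPTN, at chr10:13099449-13138308 on the plus strand, had 16.3, 17.4 and 14.9 CPM in HEK293T +Met and 51.0, 61.8 and 57.5 CPM in R1 +Met. The log2 fold change was 1.81 ± 0.25 (adjusted p = 0.00133 in edgeR), and it too was called in all 26 alternatives. SQSTM1 was higher in R1 in +Met by 0.49 ± 0.20, which was called with 11 libraries (adjusted p = 0.0174) and not with 12 (adjusted p = 0.133). TAX1BP1, a receptor related to CALCOCO2, likewise was called with 11 libraries and not with 12, at 0.48 ± 0.13 (edgeR adjusted p = 0.0162). All 5 receptors had positive log2 fold changes, from 0.20 in CALCOCO2 to 1.81 in OPTN, as had 51.2% of all genes.

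Of the transcription factors, TFE3 was higher in R1 in both fits and TFEB with 11 libraries. TFE3, at chrX:49028726-49043410 on the minus strand, had 21.8, 21.4 and 21.2 CPM in HEK293T +Met and 50.1, 42.1 and 53.1 CPM in R1 +Met. Its log2 fold change was 1.17 ± 0.31 (adjusted p = 0.0318 in edgeR, 0.000198 with 11 libraries). This call held in 19 of 26 alternatives, with adjusted p-values up to 0.114, and was lost without any 1 of the HEK293T +Met libraries, HEK293T −Met+Hcy replicate 2, or R1 +Met replicate 1 or 3, and under the replicate block. TFEB, at chr6:41683978-41736259 on the minus strand, had 3.18, 5.05 and 2.79 CPM in HEK293T and 9.21, 6.37 and 8.45 CPM in R1. The TFEB difference of 1.12 ± 0.47 had an adjusted p of 0.156 with 12 libraries in edgeR and was called with 11, at 1.12 ± 0.25 (adjusted p = 0.00487). Of the 3 genes with an E-box before a RefSeq start, LAMP1 had a log2 fold change of 0.37, ATG3 of −0.60 and ATG14 of −0.17. None was called with 12 libraries and TMM scaling. With 11, edgeR called ATG3 lower in R1 (adjusted p = 0.0156). The LAMP1 difference was called higher in DESeq2 with 11 libraries and on column sums alone with 12 or 11, and ATG3 was not called on column sums alone. ATG3 had 132, 109 and 137 CPM in HEK293T and 74.6, 104 and 70.6 CPM in R1.

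ULK2, the second kinase of the ULK family, had 5.37, 6.84 and 8.38 CPM in HEK293T +Met and 11.9, 13.1 and 12.8 CPM in R1. The log2 fold change was 0.88 ± 0.22 (adjusted p = 0.0265 in edgeR). It was called in 20 of 26 alternatives, with adjusted p-values up to 0.156, and not without HEK293T +Met replicate 1 or 2 or R1 +Met replicate 1 or 3, nor with the trend with GC content and length removed, with 12 or 11 libraries. ULK1 had 38.6, 45.4 and 37.99 CPM in HEK293T and 73.8, 56.4 and 67.5 CPM in R1. The ULK1 difference of 0.70 was called with 11 libraries (adjusted p = 0.00996) and not with 12 (adjusted p = 0.358). UVRAG had 19.5, 20.1 and 20.5 CPM in HEK293T and 37.3, 37.4 and 37.1 CPM in R1, and its log2 fold change of 0.90 ± 0.18 was called (adjusted p = 0.00955 in edgeR).

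In the lipidation system 1 of 13 tested genes, ATG5, was called lower with 12 libraries and none higher. Of the 13, 9 had a negative log2 fold change and the median was −0.56, beside 0.02 for all genes, and the difference from the other roles was not tested. With the trend with GC content and length removed and 12 libraries, GABARAP and GABARAPL1 were called higher and ATG5 lower, beside 11% and 9.62% of all genes. ATG5 is joined to ATG12 and directs ATG8 proteins to the membrane. It had 71.4, 65.6 and 84.9 CPM in HEK293T +Met and 25.9, 43.96 and 19.6 CPM in R1 +Met, and its log2 fold change was −1.31 ± 0.36 (adjusted p = 0.0362 in edgeR, 0.00302 with 11 libraries). The ATG5 call held in 16 of 26 alternatives, with adjusted p-values up to 0.1501, and was lost without any 1 of the 6 HEK293T libraries, without R1 +Met replicate 1 or 3, on column sums alone and under the replicate block. MAP1LC3B had 75.6, 70.2 and 86.6 CPM in HEK293T and 45.3, 60.5 and 40.2 CPM in R1. Its log2 fold change of −0.67 was called with 11 libraries (adjusted p = 0.0115) and not with 12 (adjusted p = 0.0899). With 11 libraries edgeR also called ATG3, ATG7, the E1-like enzyme of the system, ATG4D and ATG16L1 lower, and GABARAPL1 higher at 0.63 ± 0.15 (adjusted p = 0.00668), so that 6 of 13 were lower and 1 higher, beside 15.7% and 17% of all genes. In R1 +Met, replicate 2 was the highest of the 3 for every tested lipidation gene except ATG4D and GABARAPL1. It had 43.96 CPM against 25.9 and 19.6 for ATG5, and 104 CPM against 74.6 and 70.6 for ATG3. Without this library ATG5, ATG7, ATG12 and MAP1LC3B were called lower and no lipidation gene higher, beside 6.52% and 6.23% of all genes, and the part of the trend of this library with GC content in these values was not tested. On column sums alone no member was called lower with 12 libraries and ATG5 alone with 11, whereas 10 and 21 members were called higher. On that scale 13.1% of all genes were called higher and 2.08% lower with 12 libraries, and 33.9% and 6.8% with 11, where the median of all genes was 0.37.

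**Figure D3:**
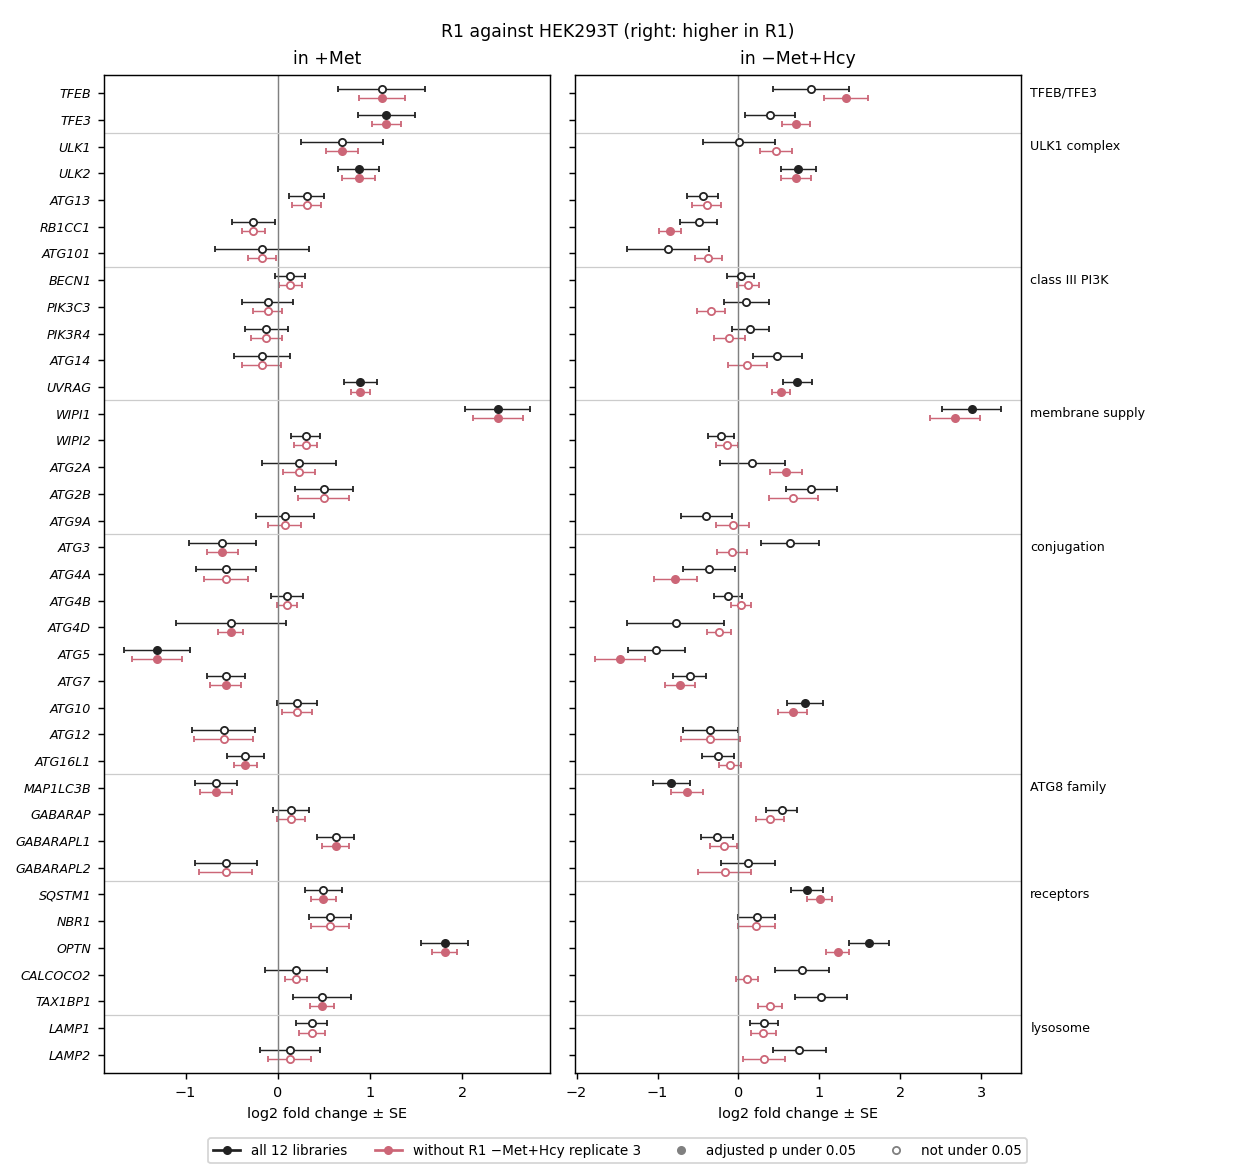
Log2 fold changes of R1 against HEK293T (x axis, positive is higher in R1) with their SE for the 37 tested genes, ordered by role, in +Met (left) and −Met+Hcy (right). Black points use 12 libraries, red points leave out R1 −Met+Hcy replicate 3, and filled points have an edgeR adjusted p under 0.05. WIPI1 lies farthest to the right and ATG5 farthest to the left in both media and both fits.

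In −Met+Hcy the lines were compared again, and this comparison uses the library that stood apart. Its groups are also used in the comparisons of media, so its results are not independent of those. With 12 libraries WIPI1, OPTN, SQSTM1, ATG10, ULK2 and UVRAG were called higher in R1 and MAP1LC3B lower, 6 and 1 of 37 beside 7.2% and 6.76% of genes. With 11 libraries 9 members were higher and 5 lower, beside 15.7% and 14.6%. The fit on the 6 libraries of this comparison alone called WIPI1 and OPTN and no others, both higher, beside 1.67% of 16523 genes higher and 1.34% lower. The groups of 17 of the 37 members did not overlap, beside 32.5% of all genes.

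WIPI1 had 0.969, 0.734 and 0.729 CPM in HEK293T −Met+Hcy and 5.31, 5.13 and 7.62 CPM in R1 −Met+Hcy, with a log2 fold change of 2.88 ± 0.36 (adjusted p = 0.000558 in edgeR). OPTN had 22.8, 24.5 and 20.1 CPM in HEK293T and 50.8, 54.5 and 101 CPM in R1. Replicate 3 of R1 gave the highest value of both genes, and without it the log2 fold changes were 2.68 ± 0.31 and 1.23 ± 0.14, both still called (adjusted p = 7.42e-05 and 7.12e-05 in edgeR). SQSTM1 had 46.6, 46.4 and 39.2 CPM in HEK293T and 89.1, 87.8 and 60.4 CPM in R1, a log2 fold change of 0.84 ± 0.20 (adjusted p = 0.0146 in edgeR) that was 1.01 ± 0.15 with 11 libraries. UVRAG had 28.1, 29.2 and 30.4 CPM in HEK293T and 42.7, 41.5 and 61.1 CPM in R1, with a log2 fold change of 0.73 ± 0.18 (adjusted p = 0.0196 in edgeR). These 4 genes are among the 17 whose groups did not overlap. SQSTM1 was called in 23 of 26 alternatives and UVRAG in 22, with adjusted p-values up to 0.105 and 0.140. SQSTM1 lost its call without HEK293T −Met+Hcy replicate 2 or 3 and UVRAG without any 1 of the HEK293T −Met+Hcy libraries, and both lost it in the fit on the 6 libraries of the comparison.

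ULK2 was again higher in R1, with 7.56, 8.02 and 9.68 CPM in HEK293T and 13.5, 14.0 and 14.7 CPM in R1 (log2 fold change 0.74 ± 0.22, adjusted p = 0.0413 in edgeR, 0.0140 with 11 libraries), a call that held in 13 of 26 alternatives, with adjusted p-values up to 0.162. It was lost with no filter, under the replicate block, in the fit on the 6 libraries of the comparison, with the trend with GC content and length removed (12 or 11 libraries), and when any of 8 single libraries was left out, the exceptions being HEK293T +Met replicates 1 and 3, R1 +Met replicate 2 and R1 −Met+Hcy replicate 3. ATG10, the enzyme that joins ATG12 to ATG5, had 7.88, 10.51 and 8.28 CPM in HEK293T and 15.3, 13.1 and 18.9 CPM in R1 (log2 fold change 0.83 ± 0.22, adjusted p = 0.0271 in edgeR). With TMM scaling it was the one lipidation gene called higher in R1 in this medium in edgeR, with 12 or 11 libraries. It was called in 21 of 26 alternatives, and was not called without any 1 of the HEK293T −Met+Hcy libraries, under the replicate block or in the fit on the 6 libraries. DESeq2 with 12 libraries, column sums alone and the removal of the GC and length trend also called GABARAP higher. MAP1LC3B had 69.7, 86.4 and 94.4 CPM in HEK293T and 57.6, 49.5 and 34.0 CPM in R1, and its log2 fold change of −0.83 ± 0.23 (adjusted p = 0.0337 in edgeR) was −0.64 ± 0.20 with 11 libraries (adjusted p = 0.0275). The MAP1LC3B call held in 17 of 26 alternatives, and was lost without HEK293T +Met replicate 1, HEK293T −Met+Hcy replicate 2 or 3, R1 +Met replicate 1 or R1 −Met+Hcy replicate 2. It was also lost on column sums alone with 12 libraries, under the replicate block with 12 or 11, and in the fit on the 6 libraries of the comparison. ATG5 had 57.0, 64.3 and 79.1 CPM in HEK293T and 29.4, 19.2 and 50.6 CPM in R1. Its difference was called with 11 libraries, at −1.46 ± 0.31 (adjusted p = 0.00390 in edgeR), and not with 12, at −1.01 ± 0.35 (adjusted p = 0.0760). ATG101 had 46.2, 47.0 and 50.2 CPM in HEK293T and 39.8, 33.9 and 4.87 CPM in R1, the last in replicate 3, and was not called. ATG2A turned on single libraries: its log2 fold change was 0.17 with 12 libraries (adjusted p = 0.813 in edgeR), 0.59 ± 0.20 with 11 (called, adjusted p = 0.0382) and −0.22 (adjusted p = 0.742) without R1 −Met+Hcy replicate 2. With 11 libraries ATG7 and the protease ATG4A were called lower, by 0.72 and 0.78 on the log2 scale (edgeR adjusted p = 0.0120 and 0.0437). With 12 libraries neither was called. Over the 26 alternatives ATG7 ran from −0.83 to −0.48 (called in 6) and ATG4A from −0.79 to −0.11 (called in 3).

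For TFEB and TFE3 the call turned on replicate 3 of R1. TFEB had 3.49, 2.71 and 4.11 CPM in HEK293T −Met+Hcy and 8.65, 8.60 and 1.95 CPM in R1, so that replicate 3 lay below every HEK293T library. TFE3 had 29.8, 23.3 and 21.1 CPM in HEK293T and 36.2, 45.0 and 15.9 CPM in R1. With 12 libraries neither factor was called (log2 fold changes 0.90 ± 0.47 and 0.39 ± 0.31, adjusted p = 0.229 and 0.428 in edgeR). Without R1 −Met+Hcy replicate 2 neither was called, at 0.62 for TFEB and 0.07 for TFE3 (edgeR adjusted p = 0.445 and 0.891). With 11 libraries both were called, at 1.33 ± 0.27 (adjusted p = 0.00285) and 0.71 ± 0.17 (adjusted p = 0.00779). When the trend of each library with GC content and length was removed and all 12 libraries were kept, both were called as well, at 1.06 for TFEB and 0.52 for TFE3 (edgeR adjusted p = 0.0198 and 0.0129). In the opposite direction, TAX1BP1 had 125, 131 and 124 CPM in HEK293T and 168, 164 and 436 CPM in R1, and its log2 fold change went from 1.01 (adjusted p = 0.0549) to 0.39 (adjusted p = 0.0643) without replicate 3. RB1CC1 was called lower in R1 with 11 libraries, at −0.85 ± 0.14 (adjusted p = 0.000826 in edgeR), and not with 12, at −0.49 (adjusted p = 0.178). It had 201, 216 and 212 CPM in HEK293T and 115, 118 and 215 CPM in R1, the last in replicate 3.

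**Figure D4:**
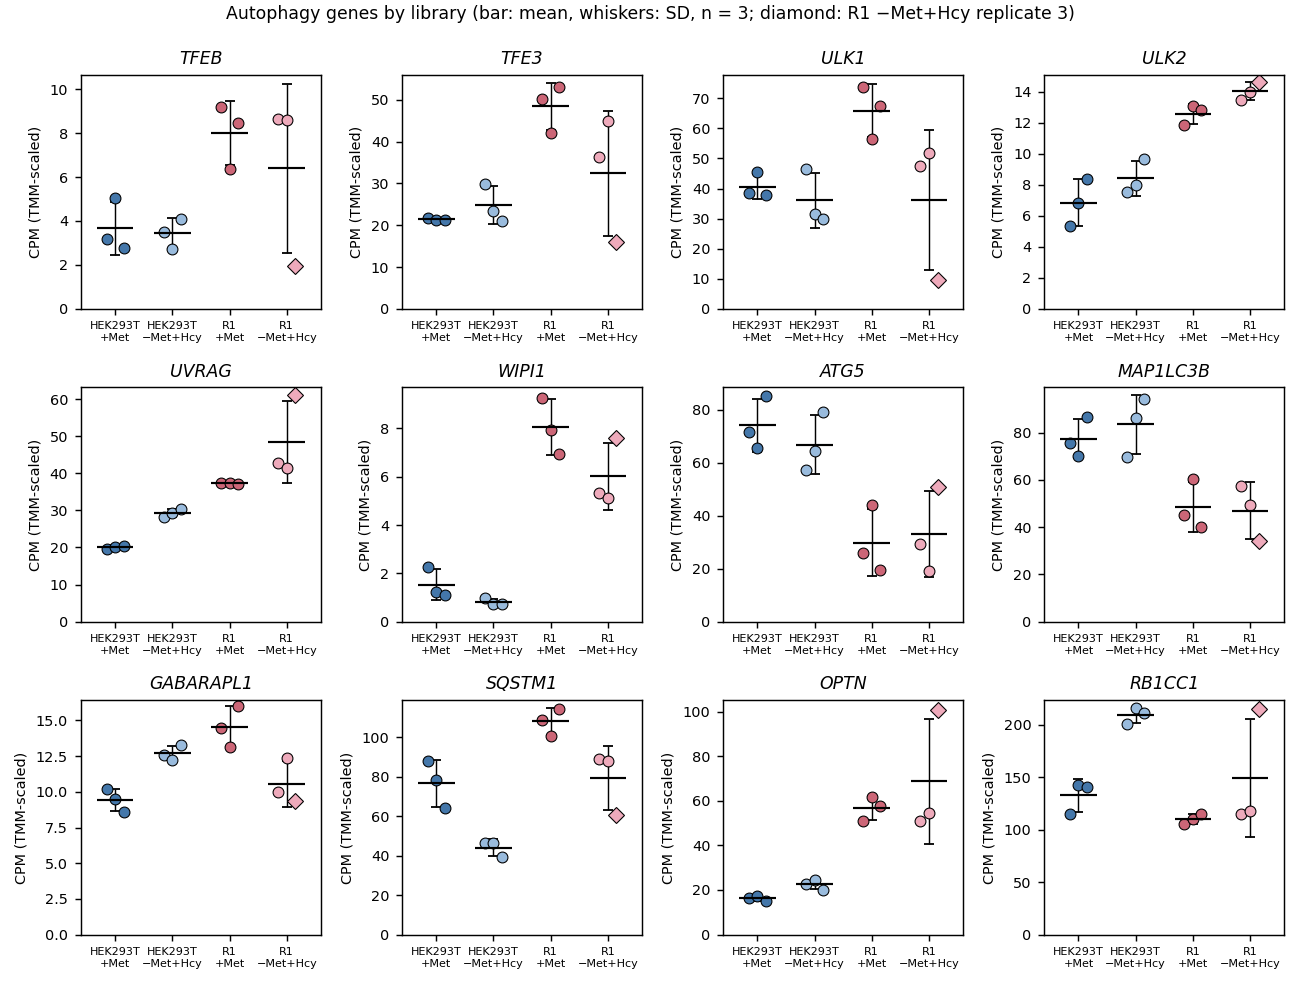
CPM scaled by TMM (y axis, from 0) of 12 of the genes in each library, with the 4 groups on the x axis, the mean as a bar and the SD as whiskers (n = 3). The diamond is R1 −Met+Hcy replicate 3. WIPI1 and OPTN separate the lines in both media, SQSTM1 is lowest in HEK293T −Met+Hcy, and the diamond lies far below its group for TFEB, TFE3 and ULK1.

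Other genes of the pathway, from lists outside the 38, were read in the same fits, with 12 libraries unless 11 are named, where 4.25% of all genes were called higher and 2.78% lower in HEK293T (15.2% and 12.5% with 11). In HEK293T, ZFYVE1, whose product DFCP1 marks the membrane sites where autophagosomes form, was the 1 of 15 further early genes called, and it rose from 9.60, 9.32 and 7.42 CPM to 27.1, 21.2 and 17.1 CPM (log2 fold change 1.31 ± 0.32, adjusted p = 0.0290 in edgeR, called in 20 of 26 alternatives). With 11 libraries 4 of the 15 were called higher and 0 lower. Of 13 other selective receptors, the endoplasmic reticulum receptor RETREG1 and the glycogen receptor STBD1 rose, by 1.22 and 1.28 on the log2 scale (adjusted p = 0.0184 and 0.0436 in edgeR). RETREG1 was called in 19 and STBD1 in 15 of 26 alternatives, with adjusted p-values up to 0.0878 and 0.168. With 11 libraries 5 of the 13 were called higher and 2, PHB2 and BNIP3, lower. No gene of 12 for fusion with the lysosome was called in edgeR in HEK293T with 12 libraries, where 1 was lower at an unadjusted p under 0.05 and DESeq2 called none, while with 11 libraries 2 were called higher and 2 lower. None of 11 regulators and relatives of TFEB and TFE3 was called either, with 3 higher at an unadjusted p under 0.05, as were 2209 of all 17162 genes. DESeq2 with 12 libraries called RRAGA and RRAGC higher, where its share over all genes was 8% higher and 5.87% lower. With 11 libraries edgeR called MITF, RRAGA and RRAGC higher.

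Of 16 tested genes of the proton pump that acidifies lysosomes and other compartments, ATP6V1H and ATP6V0A2 fell in HEK293T and none was called higher. Which compartment each subunit serves was not examined. The log2 fold change was positive in 5 of the 16 and negative in 11, with a median of −0.47 beside 0.03 for all genes. ATP6V1H went from 65.5, 60.6 and 59.5 CPM to 22.3, 31.5 and 33.2 CPM (log2 fold change −1.09 ± 0.20, adjusted p = 0.00799 in edgeR, called in all 26 alternatives). With 11 libraries 7 of the 16 were called lower and 0 higher, beside 12.5% and 15.2% of all genes. Of 23 lysosomal enzymes and related genes, GLA and CTSB fell, by 0.69 and 0.60 on the log2 scale (adjusted p = 0.0346 and 0.0425 in edgeR), and none was called higher, while 11 of the 23 had positive and 12 negative log2 fold changes. GLA was called in 17 and CTSB in 14 of 26 alternatives, with adjusted p-values up to 0.143 and 0.292, and with 11 libraries 7 of the 23 were called lower and 1 (SGSH) higher.

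In R1 no gene of these 6 lists was called for the medium in edgeR or DESeq2, with 6 higher and 0 lower of 90 at an unadjusted p under 0.05 in edgeR, beside 974 and 362 of all 17162 genes. Between the lines, RETREG1 was higher in R1 in both media, with 2.19, 2.49 and 2.42 CPM in HEK293T +Met and 8.37, 10.4 and 6.80 CPM in R1 +Met (log2 fold change 1.85 ± 0.27, adjusted p = 0.00156 in edgeR). VPS41, a subunit of the HOPS tethering complex, was higher in R1 in both media too (called in 17 of 26 alternatives in +Met and 25 in −Met+Hcy), and GLA was lower in R1 in +Met (20 of 26). Of the 90 genes of the lists, 3 were called higher and 1 lower in R1 in +Met, and 9 and 0 in −Met+Hcy, beside 5.69% and 4.48%, and 7.2% and 6.76% of all genes. With 11 libraries the counts were 19 and 5 in +Met and 18 and 3 in −Met+Hcy, beside 17% and 15.7%, and 15.7% and 14.6%. In −Met+Hcy, 4 of the 16 proton pump genes were higher in R1, beside 7.2% of all genes, led by ATP6V1H at 1.40 ± 0.20 (adjusted p = 0.00104 in edgeR). The HEK293T libraries here are also those of the ATP6V1H decrease above, so the results are not independent. ATP6V1E1, another of the 4, stood at 1.24, and the fusion regulator RAB7A was called higher at 1.18, where replicate 3 gave 334 CPM of ATP6V1E1 against 131 and 126 CPM and 421 CPM of RAB7A against 139 and 148 CPM. Without it the differences were 0.62 and 0.47, both still called (adjusted p = 0.0319 and 0.0185 in edgeR). Over the 26 alternatives ATP6V1E1 was called in 20 and RAB7A in 14, with adjusted p-values up to 0.153 and 0.191.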

How the data were processed

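The authors quantified reads with kallisto 0.48.0 against GRCh38, added the estimated counts of transcripts of each Ensembl gene and deposited the sums as whole numbers. Whether the quantification used strand is not given in the sources used here. Entries with a summed count under 10 were left out (17162 tested, 17069 with 11 libraries). Counts were scaled by TMM and fitted in edgeR 4.0.16 (R 4.3.3) with a mean per group. Quasi-likelihood p-values received a Benjamini-Hochberg adjustment across the whole table, and a gene was called at an adjusted p under 0.05. Genes described in full were TFEB, TFE3, ULK1, SQSTM1, MAP1LC3B, GABARAPL1, members called, and up to 3 per comparison and direction with the largest change, a mean of at least 5 CPM and no overlap. The other cell lines of the study were not analysed here. Members and lists were chosen with earlier results of these data known. GC content, length and exon overlap were taken from GENCODE transcripts on the same build, which covered 92.4% of tested genes. The procedure was tested on simulated data, and the outcome of that test is not reported here. Alternatives included DESeq2 1.42.0, other scaling and filters, and each library left out. Not every gene of the lists is reported here.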

Additional observations from a re-analysis of the deposited data

How the results depend on the processing

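Counts of members called (higher and lower) are given in the order of medium in HEK293T, lines in +Met and lines in −Met+Hcy, where the main counts were 0 and 1, 5 and 1, 6 and 1 of 37. Brackets give, in the same order, the percentage of all genes called in that fit, which was 4.25 and 2.78, 5.69 and 4.48, 7.2 and 6.76 in the main one. DESeq2 gave 3 and 1, 6 and 2, 9 and 3 (8 and 5.87, 9.42 and 8.46, 11 and 10.5). The libraries of each comparison alone gave 7 and 5, 10 and 5, 2 and 0 (18.6 and 15.5, 16.7 and 13.4, 1.67 and 1.34). A minimum absolute log2 fold change of 1 gave 0 and 0, 3 and 1, 2 and 0 (3.04 and 1.59, 4.71 and 2.95, 5.29 and 4.66). Removing the trend with GC content and length gave 2 and 2, 8 and 1, 10 and 3 (10.2 and 9.54, 11 and 9.62, 16.7 and 13), and doing so without R1 −Met+Hcy replicate 3 gave 6 and 9, 12 and 7, 10 and 8 (19.7 and 18.1, 20.2 and 18.5, 19.7 and 18.4), with ATG13 and RB1CC1 (2 members) lower in the difference of the responses, beside 4.65% of all genes. The edgeR filter by group size gave 1 and 1, 6 and 1, 6 and 1 (5.45 and 3.43, 7.17 and 5.44, 8.9 and 8.03). A replicate block gave 0 and 0, 4 and 0, 4 and 0 (2.35 and 1.25, 3.94 and 2.59, 4.87 and 4.8). The labels do not say whether a replicate number marks a shared culture or day. Correlations of same-numbered libraries, taken as deviations from their group means, ran from −0.72 to 0.60 and exceeded 0.1 in 6 of 18 pairs. Because these deviations also follow GC content in single libraries, the correlations cannot decide whether the numbers pair libraries. Leaving out each library in turn gave 0 to 7 higher and 0 to 5 lower, 3 to 10 and 0 to 6, 2 to 9 and 0 to 5, and 0 for the medium in R1 and the difference of the responses, and in the first 3 the percentage of all genes ran from 1.27 to 15.2 higher and 0.429 to 12.5 lower, 2.51 to 17 and 1.15 to 15.7, 3.18 to 15.7 and 3.16 to 14.6. Chosen after seeing the data were column sums alone, with 5 and 0, 10 and 0, 8 and 1 (10.5 and 1.24, 13.1 and 2.08, 7.21 and 5.7), and 3 fits with 11 libraries. Of these the replicate block gave 6 and 4, 10 and 5, 8 and 3 (12.2 and 9.47, 14.3 and 12.2, 12 and 10.4), DESeq2 gave 7 and 7, 13 and 7, 10 and 5 (16.4 and 15.4, 18.4 and 18.4, 17.6 and 17.2) with 2 lower in the difference (RB1CC1, GABARAPL1, beside 3.96%), and column sums gave 13 and 2, 21 and 1, 11 and 4 (28.4 and 5.5, 33.9 and 6.8, 18.1 and 11.6) with 3 lower in the difference (RB1CC1, GABARAPL1, OPTN, beside 4.11%). On column sums alone with 11 libraries 69.8% and 70.4% of all genes, called or not, were higher in the first 2 comparisons. RLE scaling, no filter, a robust spread and adding the entries of a symbol left every count within 1 of the main one. In the lines in −Met+Hcy, ATG2A turned to −0.22 (edgeR adjusted p = 0.742) without R1 −Met+Hcy replicate 2 and was 0.59 without replicate 3. WIPI1 and OPTN in both comparisons of the lines, and UVRAG in +Met, were called in all 26 alternatives other than the minimum fold change, under which UVRAG was not called, with log2 fold changes of 2.19 to 2.77 and 2.57 to 3.06 for WIPI1, 1.74 to 2.16 and 1.19 to 1.79 for OPTN, and 0.78 to 1.25 for UVRAG. WIPI1 rests on 11 to 30 counts per HEK293T library. The cause of the differences between settings was not tested.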
